A study of Mus musculus with 8 samples.

Results

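Growth factor receptors let blood progenitors read the haematopoietic cytokines, and 9 mouse genes for them were followed in RNA-seq of sorted bone marrow cells with and without the nuclear protein TOX. The 9 were the receptor tyrosine kinases Flt3, Kit and Csf1r, the ligand-binding chains Csf2ra and Il3ra, the signalling chains Csf2rb and Csf2rb2, and the receptors Csf3r and Epor. They were chosen by gene symbol, and each matched 1 entry among the 23846 of the deposited expression table. There were 4 libraries from wild-type mice and 4 from TOX knockout mice. The labels give for both groups only sorted bone marrow cells. They name no sorted population, strain, age or knockout design, and they do not say that each library came from its own animal, so p-values measure the spread between these libraries, which may be technical. TOX is an HMG-box factor of developing lymphocytes, and the title of the series ties it to the origin of a progenitor of innate lymphoid cells.

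Flt3, Kit and Csf1r are class III receptor kinases. Each carries immunoglobulin-like domains outside the cell and a split kinase inside, and each pairs up when it binds its ligand, which is FLT3 ligand for Flt3, stem cell factor for Kit and CSF1 or IL-34 for Csf1r. The other 6 are cytokine receptor chains without a kinase of their own, whose complexes signal through Janus kinases, JAK2 above all, to STAT factors such as STAT5. In the marrow, FLT3 is known from multipotent and lymphoid-primed progenitors and dendritic cell precursors, KIT from stem cells, early progenitors and mast cells, CSF1R from monocytes and macrophages, the GM-CSF and IL-3 receptors from myeloid progenitors, basophils and mast cells, CSF3R from granulocytes and their precursors, and EPOR from erythroid progenitors.

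Levels are FPKM, that is fragments for each kilobase of a gene model after scaling to library depth, which can be compared between genes because they are set per length. Differences between the groups are log2 fold changes of FPKM + 1, with the wild-type mean taken from the knockout mean, and SE is their standard error. The added 1 makes changes of low genes look smaller than they were. Adjusted p-values come from limma over 10693 entries with a mean of at least 1 FPKM, and rose or fell is written of a gene with an adjusted p under 0.05. Libraries are named by the number in their column, 10, 16, 29 or 11. Libraries 10 and 16 of both groups carry barcodes 17 to 20, called here the first run of barcodes. Libraries 29 and 11 carry barcodes 40 to 43, called the second. A run here means only consecutive barcode numbers, and the labels name no sequencing run or batch. Tox itself had 110 ± 13.8 FPKM (SD, n = 4) in wild type and 0.904 ± 1.02 FPKM (SD, n = 4) in the knockout. At least 1 FPKM was reached by 10425 to 10481 genes in wild type but by 10115, 7328, 9263 and 10600 genes in knockout libraries 10, 16, 29 and 11. The 12 markers listed for ILC progenitors, Tox among them, summed to 2168 to 3006 FPKM in wild type and 162 to 660 FPKM in the knockout. Of the libraries, knockout 16 stood apart by its number of genes at 1 FPKM or more, so each receptor is given with and without it. The FPKM of all genes in knockout library 16 also had the lowest sum of the 8 libraries, 208351. Wild-type sums were 296777 to 365906, and those of the other knockout libraries 342227 to 632604. Haemoglobin transcripts took 3.42% to 14.8% of all FPKM in wild type and 25.6%, 20.9%, 58.6% and 6.17% in knockout libraries 10, 16, 29 and 11.

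No receptor rose and none fell, that is 0 of 9 in each direction by limma, where 0.196% of all tested entries rose and 1.72% fell. At an unadjusted p under 0.05, 3 receptors passed, Flt3, Csf1r and Csf3r, each higher in the knockout, as were 3.11% of all tested entries, while 17.5% passed in the lower direction. The log2 fold change was above 0 for 8 of the 9, with a median of 1.28, and the median over all tested entries was -0.52. Csf1r, Csf2rb2 and Epor had wild-type means under 1 FPKM and passed the filter on low values through their knockout libraries, so neither the median of the receptors nor a p-value of these 3 supports anything by itself. Groups did not overlap for Flt3 and Csf1r, both higher in the knockout, as for 1.09% of all tested entries. Lower without overlap were 0 receptors and 11.0% of tested entries. Values scaled by the median ratio between libraries moved the median of all genes to -0.04 and the split of all calls from 21 rose and 184 fell to 93 rose and 119 fell. Under that scaling 1 receptor, Flt3, rose, where 0.870% of tested entries did, and without knockout library 16 it was 2, Flt3 and Csf2rb, where 1.16% did.

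**Figure D1:**
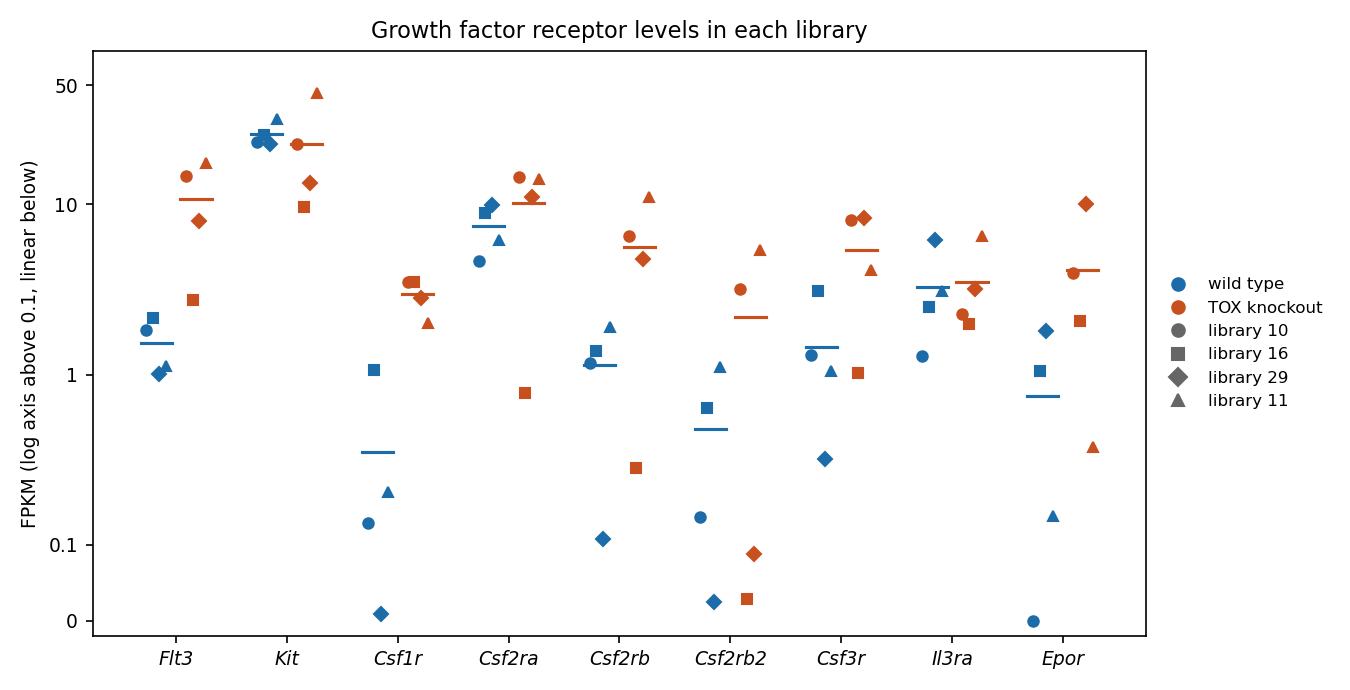
FPKM of each receptor in the 8 libraries, wild type and TOX knockout, on an axis that is logarithmic above 0.1 and linear below, with a marker shape per library number and a short line at each group's mean. The knockout points of Flt3 and Csf1r lie above all wild-type points, Kit is the highest receptor in every library, and knockout library 16 is the lowest knockout point for Flt3, Kit, Csf2ra, Csf2rb, Csf2rb2, Csf3r and Il3ra.

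Flt3 (chromosome 5, 147330742 to 147400489, mm10), the receptor of lymphoid-primed and multipotent progenitors, was low in wild type and had a mean 7.02 times as high in the knockout. Wild-type libraries 10, 16, 29 and 11 held 1.83, 2.14, 1.01 and 1.13 FPKM of Flt3. In knockout libraries 10, 16, 29 and 11, Flt3 stood at 14.7, 2.74, 7.98 and 17.5 FPKM. All knockout values lay above all wild-type values, but knockout library 16 only just cleared the highest wild-type library. The group means were 1.53 ± 0.548 FPKM (SD, n = 4) and 10.7 ± 6.65 FPKM (SD, n = 4). The log2 fold change was 2.00 (SE 0.51, 95% interval 0.89 to 3.11) with a limma adjusted p of 0.0726, short of the threshold. An exact two-sided permutation test of the 4 against 4 values gave an unadjusted p of 0.0286, the smallest this design allows. Without knockout library 16 the log2 fold change of Flt3 was 2.47 (limma adjusted p = 0.00422), and with median-ratio scaling it was 2.41 (limma adjusted p = 0.00661). Over 26 alternatives its adjusted p ran from 0.00075 to 0.657. The barcode runs taken alone, with 2 libraries a group, gave log2 fold changes of 1.36 (limma adjusted p = 0.657) in the first and 2.64 (limma adjusted p = 0.102) in the second. In these bulk samples, fewer cells of a type and less RNA per cell cannot be told apart, which holds for every gene below.

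The promoter of Flt3 is shown as that of a receptor whose groups did not overlap. It is given from 250 bases before the start to 50 after it, from RefSeq on GRCm38.p6, chr5:147400440-147400739, minus strand, 5′ to 3′. The window was searched on both strands for the GATA letters AGATAA and TGATAA, the ETS letters GAGGAA, the C/EBP letters TTNNGNAA and the KLF letters CCACCC. It held none of them, so no base is in capitals.
Flt3 promoter: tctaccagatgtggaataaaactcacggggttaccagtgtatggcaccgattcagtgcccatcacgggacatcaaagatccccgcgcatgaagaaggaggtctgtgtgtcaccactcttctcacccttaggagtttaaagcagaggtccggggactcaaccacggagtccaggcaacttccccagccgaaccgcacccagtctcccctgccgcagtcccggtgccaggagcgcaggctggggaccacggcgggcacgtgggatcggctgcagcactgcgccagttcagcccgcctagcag
Among 32851 promoters of the same length, 18.6% held a GATA match, 28.3% an ETS match, 40.7% a C/EBP match and 31.5% a KLF match.

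Dendritic markers were set beside Flt3, as FLT3 is known from dendritic cell precursors. All 10 of that list were in the table, 7 passed the filter, and Cd209a was at 0 in every wild-type library. Ccr9, a chemokine receptor of the list, fell from 25.8 ± 6.48 to 3.06 ± 1.09 FPKM (SD, n = 4 each, limma adjusted p = 0.00250), and Xcr1 was lower without overlap, at 2.07 ± 0.311 and 0.680 ± 0.670 FPKM (SD, n = 4 each, limma adjusted p = 0.222). Siglech went the other way with overlap, at 0.446 ± 0.725 and 3.91 ± 2.20 FPKM (SD, n = 4 each, limma adjusted p = 0.0932). At an unadjusted p under 0.05 by limma, 3 of the 7 passed, and 1 of them, Siglech, was higher in the knockout. Shares over all tested entries were 3.11% higher and 17.5% lower. Summed, the 10 dendritic markers came to 228 to 524 FPKM in wild type and to 593, 63.9, 552 and 1276 FPKM in knockout libraries 10, 16, 29 and 11, so the groups overlapped, and library 16 was again the lowest. The 10 stem and multipotent markers summed to 190 to 302 FPKM in wild type and 101 to 447 FPKM in the knockout, also with overlap. Among them Hlf, a stem cell transcription factor, fell from 9.35 ± 4.24 to 1.45 ± 0.703 FPKM (SD, n = 4 each, limma adjusted p = 0.0484). Ly6a was lower without overlap, at 127 ± 81.3 and 35.0 ± 8.51 FPKM (SD, n = 4 each, limma adjusted p = 0.101), while Cd34 had means of 12.2 and 43.8 FPKM and Gata2 of 1.44 and 16.7 FPKM, both with overlap. Their part in the Flt3 values was not tested.

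Kit (chromosome 5, 75574987 to 75656721), the stem cell factor receptor, was the most abundant receptor in every library and did not pass the test. Its wild-type values were close together, at 23.4, 25.5, 22.7 and 31.7 FPKM in libraries 10, 16, 29 and 11. The knockout values of Kit spread more, at 22.7, 9.68, 13.3 and 45.4 FPKM in the same order. The lowest and the highest of all 8 libraries were thus knockout libraries 16 and 11, and the groups overlapped. Means were 25.8 ± 4.10 FPKM (SD, n = 4) in wild type and 22.8 ± 16.03 FPKM (SD, n = 4) in the knockout. The log2 fold change of Kit was -0.39 (SE 0.45, 95% interval -1.37 to 0.58, limma adjusted p = 0.583), and -0.08 without knockout library 16 (limma adjusted p = 0.920). Without knockout library 11 it was -0.79 (limma adjusted p = 0.175). It was 0.19 with median-ratio scaling, so its sign depended on the scaling. The first run gave -0.67 and the second -0.11.

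Csf1r (chromosome 18, 61105572 to 61131139), the CSF1 receptor of monocytes and macrophages, did not exceed 0.204 FPKM in 3 of the 4 wild-type libraries and was at least 2.01 FPKM in every knockout library. Wild-type libraries 10, 16, 29 and 11 held 0.134, 1.07, 0.00809 and 0.204 FPKM of Csf1r. Its knockout values were 3.51, 3.51, 2.84 and 2.01 FPKM in the same order. Library 16, which was low in the knockout for most receptors, was here level with the highest knockout library. Means of Csf1r were 0.354 ± 0.484 FPKM (SD, n = 4) and 2.97 ± 0.714 FPKM (SD, n = 4), a ratio of 8.39. Its log2 fold change was 1.59 (SE 0.40, 95% interval 0.73 to 2.46) with a limma adjusted p of 0.0658, and the exact two-sided permutation test gave an unadjusted p of 0.0286. Without knockout library 16 the log2 fold change was 1.52 (limma adjusted p = 0.0776). Without knockout library 11 it was 1.72 and passed (limma adjusted p = 0.0389), and with no filter on low values its limma adjusted p was 0.183. Since Csf1r entered the test through its knockout values, its p-values are a description. Adjusted p-values of Csf1r ran from 0.0233 to 0.652 over 25 alternatives, and the runs alone gave 1.56 and 1.63.

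Monocyte and macrophage markers had 11 entries, which summed to 154 to 828 FPKM in wild type and to 2461, 312, 1504 and 686 FPKM in knockout libraries 10, 16, 29 and 11. Knockout library 16, with 3.51 FPKM of Csf1r, thus had a marker sum inside the wild-type range. The marker Lyz2 made 1827 of the 2461 FPKM in knockout library 10 and 939 of the 1504 FPKM in knockout library 29. In wild type Lyz2 ran from 3.22 to 509 FPKM. None of the 8 that passed the filter was called, with 4 at an unadjusted p under 0.05 by limma, 3 of them higher in the knockout. Over all tested entries 3.11% were higher and 17.5% lower at that threshold. Ms4a6c had means of 10.9 and 59.4 FPKM and Ly6c2 of 54.5 and 275 FPKM in wild type and knockout. Ccr2, a chemokine receptor, was lower without overlap, at 141 ± 8.57 and 43.1 ± 28.7 FPKM (SD, n = 4 each, limma adjusted p = 0.0522), and made 133 of the 154 FPKM in wild-type library 29. Cd14, a lipopolysaccharide co-receptor of monocytes, did not exceed 0.196 FPKM in any library, and Fcgr1 did not exceed 1.02 FPKM. The part of these cells in the Csf1r values was not tested.

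The GM-CSF receptor is made of the alpha chain Csf2ra and the common beta chain Csf2rb, and the IL-3 receptor of Il3ra with either beta chain. Mice carry Csf2rb2 as a second beta chain that serves IL-3. Csf2ra (chromosome 19, 61224402 to 61228418) was the second receptor by mean in wild type, with 4.66, 8.95, 9.95 and 6.20 FPKM in libraries 10, 16, 29 and 11. Its knockout values were 14.6, 0.780, 11.1 and 14.2 FPKM in the same order. Libraries 10, 29 and 11 of the knockout lay above every wild-type library and library 16 lay below every one. Over all libraries the log2 fold change of Csf2ra was 0.05 (SE 0.64, 95% interval -1.33 to 1.43, limma adjusted p = 0.964), with means of 7.44 ± 2.44 and 10.2 ± 6.45 FPKM (SD, n = 4 each). Without library 16 of the knockout it was 0.80 (limma adjusted p = 0.216), and it turned negative without wild-type library 10 or 11 or without knockout library 10, 29 or 11, to as low as -0.24. The first barcode run gave -0.51 and the second 0.61.

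Il3ra (chromosome 14, 14346495 to 14355490), the alpha chain for IL-3, did not pass the test. It stood at 1.29, 2.49, 6.22 and 3.10 FPKM in wild-type libraries 10, 16, 29 and 11 and at 2.28, 1.98, 3.20 and 6.51 FPKM in the knockout libraries. The ranges overlapped almost fully, and the means were 3.27 ± 2.10 and 3.49 ± 2.08 FPKM (SD, n = 4 each). The log2 fold change of Il3ra, 0.10 with an SE of 0.47, missed the threshold (limma adjusted p = 0.908), with a 95% interval of -0.93 to 1.12 that does not show the groups to be alike. Without knockout library 16 it was 0.26 (limma adjusted p = 0.781), without wild-type library 10 it was -0.16 and without knockout library 11 it was -0.19. The runs alone gave 0.14 and 0.05.

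Csf2rb (chromosome 15, 78325990 to 78351001), the beta chain shared by GM-CSF, IL-3 and IL-5, did not pass the test with all libraries, and was higher than in every wild-type library in 3 of the 4 knockout libraries. Its wild-type values were 1.16, 1.38, 0.109 and 1.91 FPKM in libraries 10, 16, 29 and 11. The knockout held 6.56, 0.282, 4.75 and 11.0 FPKM of Csf2rb in that order. Only knockout library 16 lay inside the wild-type range. Means were 1.14 ± 0.757 and 5.66 ± 4.45 FPKM (SD, n = 4 each), and the log2 fold change was 1.33 (SE 0.63, 95% interval -0.03 to 2.70, limma adjusted p = 0.250). Without knockout library 16 Csf2rb rose, with a log2 fold change of 2.00 and a limma adjusted p of 0.0315. The runs alone gave 0.46 in the first, which holds library 16, and 2.21 in the second, with limma adjusted p-values of 0.862 and 0.293.

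Csf2rb2 (chromosome 15, 78282510 to 78305603), the neighbouring IL-3 beta chain, held 0.146, 0.637, 0.0240 and 1.11 FPKM in wild-type libraries 10, 16, 29 and 11. In the knockout it held 3.17, 0.0291, 0.0874 and 5.43 FPKM. The 2 high knockout libraries were 10 and 11, and the other two lay among the wild-type values. Its log2 fold change was 0.72 (SE 0.60, 95% interval -0.58 to 2.03, limma adjusted p = 0.454), and 1.12 without knockout library 16 (limma adjusted p = 0.317). The ratio of Csf2rb to Csf2rb2 ran from 1.73 to 7.97 in wild type, and was 2.07, 9.68, 54.3 and 2.03 in knockout libraries 10, 16, 29 and 11. Summed, the beta chains came to 1.62 ± 1.21 and 7.84 ± 6.92 FPKM (SD, n = 4 each) with overlapping groups, and a fit of the sum gave a log2 fold change of 1.37 (limma adjusted p = 0.282).

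How reads were divided between these near copies is not given in the sources used here, so the split of Csf2rb and Csf2rb2 is uncertain. In GENCODE M21 on GRCm38 their coding sequences are 2688 and 2634 bases long, and of 2628 aligned bases 95.2% were identical. Of all stretches of 100 coding bases in Csf2rb, 11.1% also occurred letter for letter in Csf2rb2, against 26.0% of stretches of 50 bases and 2.61% of 200. The stretch of 90 bases that differs most is printed to show what can tell the copies apart, as coding bases 308 to 397 of Csf2rb and 311 to 400 of Csf2rb2, counted from the start codon, with the 16 differing bases in capitals.
Csf2rb: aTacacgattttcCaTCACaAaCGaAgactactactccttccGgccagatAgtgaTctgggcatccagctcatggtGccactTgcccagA
Csf2rb2: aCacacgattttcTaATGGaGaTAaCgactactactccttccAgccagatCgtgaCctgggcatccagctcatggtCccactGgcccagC
The longest run without a difference is 242 bases, coding bases 2083 to 2324 of both, and is printed to show where a read could not be assigned.
Csf2rb and Csf2rb2: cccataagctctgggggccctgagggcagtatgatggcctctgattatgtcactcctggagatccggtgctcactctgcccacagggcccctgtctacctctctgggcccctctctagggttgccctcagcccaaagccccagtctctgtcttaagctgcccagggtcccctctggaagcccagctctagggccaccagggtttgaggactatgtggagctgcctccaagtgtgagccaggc

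Basophil and mast cell markers, 8 of 8 in the table, summed to 91.9 to 263 FPKM in wild type and 164 to 749 FPKM in the knockout, with overlap and with the highest sum in knockout library 11, which also held the most Kit, Csf2rb, Csf2rb2 and Il3ra of the knockout libraries. Fcer1a, the alpha chain of the IgE receptor, was at 0 in every wild-type library but 16, where it was 0.0899 FPKM, and stood at 0, 11.5, 10.7 and 16.03 FPKM in knockout libraries 10, 16, 29 and 11. Il4 was lower, with means of 10.3 and 1.57 FPKM (limma adjusted p = 0.146), and Cpa3, a mast cell protease, had means of 133 and 219 FPKM (limma adjusted p = 0.744). None of the 8 was called, and 6 had an unadjusted p under 0.05 by limma, 5 of them higher in the knockout. Over all tested entries 3.11% were higher and 17.5% lower at that threshold. The part of such cells in the receptor values was not tested.

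**Figure D2:**
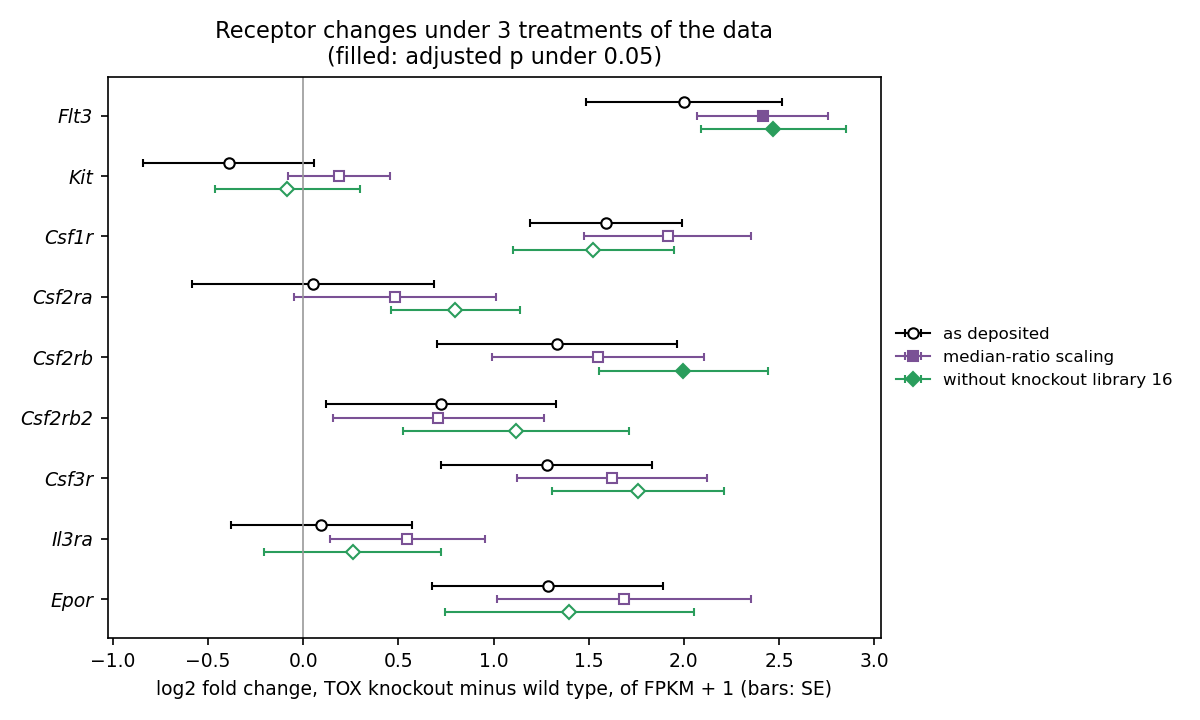
Log2 fold change of FPKM + 1 for each receptor, with positive values where the knockout was higher and SE bars, for values as deposited, scaled by the median ratio, and without knockout library 16. Filled points passed an adjusted p under 0.05, and these are Flt3 with scaling and Flt3 and Csf2rb without library 16, while Kit lies on both sides of 0.

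Csf3r (chromosome 4, 126024659 to 126044975), the G-CSF receptor of granulocytes, had wild-type values of 1.31, 3.11, 0.319 and 1.05 FPKM in libraries 10, 16, 29 and 11. Its knockout values were 8.16, 1.03, 8.36 and 4.13 FPKM. Libraries 10, 29 and 11 of the knockout lay above the wild-type range and library 16 within it. Means were 1.45 ± 1.19 and 5.42 ± 3.52 FPKM (SD, n = 4 each). The log2 fold change of Csf3r was 1.28 (SE 0.55, 95% interval 0.08 to 2.48, limma adjusted p = 0.224), and the exact two-sided permutation test gave an unadjusted p of 0.114. It was 1.76 without knockout library 16 (limma adjusted p = 0.0583), 0.48 in the first run and 2.08 in the second.

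Granulocyte markers, such as S100a8 and S100a9, 14 of 14 in the table, summed to 5688, 9459, 277 and 3829 FPKM in wild-type libraries 10, 16, 29 and 11. The knockout sums were 36813, 11450, 45003 and 12505 FPKM, all above wild type, and made 3.65% to 7.50% of all FPKM against 0.0805% to 2.59%. S100a8 and S100a9 made most of these sums, with 6179 and 3606 FPKM in knockout library 16. Of the 14 markers, 4 were higher in the knockout without overlap, beside 1.09% of all tested entries. Wild-type library 16 held 865 FPKM of Ngp, above the 466 FPKM of knockout library 16. The same order held for Mpo, Elane, Prtn3, Ctsg, Fcnb, Lcn2 and Cebpe, and the opposite for Camp, Ltf, S100a8, S100a9, Mmp8 and Mmp9. Wild-type library 29 was lowest and knockout library 29 highest for both Csf3r and the marker sum. None of the 14 markers was called, and 12 had an unadjusted p under 0.05 by limma, each higher in the knockout, beside the 3.11% of all tested entries given above. The part of granulocytes in the Csf3r values was not tested.

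Epor (chromosome 9, 21958899 to 21963576), the erythropoietin receptor, was at 0, 1.05, 1.80 and 0.148 FPKM in wild-type libraries 10, 16, 29 and 11. In the knockout Epor was at 3.96, 2.08, 10.03 and 0.376 FPKM. Knockout library 11 lay inside the wild-type range and the other 3 above it. Means were 0.749 ± 0.840 and 4.11 ± 4.21 FPKM (SD, n = 4 each), with a log2 fold change of 1.28 (SE 0.61, 95% interval -0.03 to 2.60, limma adjusted p = 0.250). Without knockout library 16 the log2 fold change was 1.40 (limma adjusted p = 0.262), and without knockout library 11 it was 1.79 (limma adjusted p = 0.0679). The first run gave 1.45 and the second 1.12.

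Erythroid markers, the globins and red cell membrane genes among them, had 13 of 15 members in the table. They summed to 8004, 39196, 14124 and 7741 FPKM in wild-type libraries 10, 16, 29 and 11 and to 91221, 31539, 273013 and 15317 FPKM in the knockout libraries, with overlap. Knockout library 29 held both the most Epor and the highest erythroid sum of all 8, and knockout library 11 the least of both among the knockouts. The part of erythroid cells in the Epor values was not tested.

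Promoters of Csf3r and Epor are printed as examples from receptors of the granulocyte and the red cell lineage. Capitals mark the GATA or ETS letters named above in windows of 300 bases from RefSeq on GRCm38.p6. The Csf3r window is chr4:126024409-126024708, plus strand, and holds 1 ETS match 86 bases before the start. The Epor window is chr9:21963527-21963826, minus strand, and holds 1 GATA match 54 bases before the start, which reads TTATCT on the printed strand. Neither window held the C/EBP letters, and the KLF letters, left in lower case, occurred 3 times in that of Csf3r and 2 times in that of Epor, without overlapping the capitals.
Csf3r promoter: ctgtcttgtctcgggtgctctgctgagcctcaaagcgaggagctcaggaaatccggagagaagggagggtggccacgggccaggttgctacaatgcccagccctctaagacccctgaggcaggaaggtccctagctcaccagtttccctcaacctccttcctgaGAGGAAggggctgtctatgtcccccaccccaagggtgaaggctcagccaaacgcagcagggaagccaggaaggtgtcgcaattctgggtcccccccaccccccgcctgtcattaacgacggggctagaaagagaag
Epor promoter: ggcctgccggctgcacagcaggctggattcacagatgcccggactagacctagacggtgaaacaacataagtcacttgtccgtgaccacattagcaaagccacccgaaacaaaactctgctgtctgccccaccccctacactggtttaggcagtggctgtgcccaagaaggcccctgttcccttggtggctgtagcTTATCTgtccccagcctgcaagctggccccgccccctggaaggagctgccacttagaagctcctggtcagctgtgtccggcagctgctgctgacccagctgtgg
Of the 9 receptors 7 had a promoter entry, and Csf1r and Csf2rb had none. A match is a set of letters, and it is not a measured binding site.

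**Figure D3:**
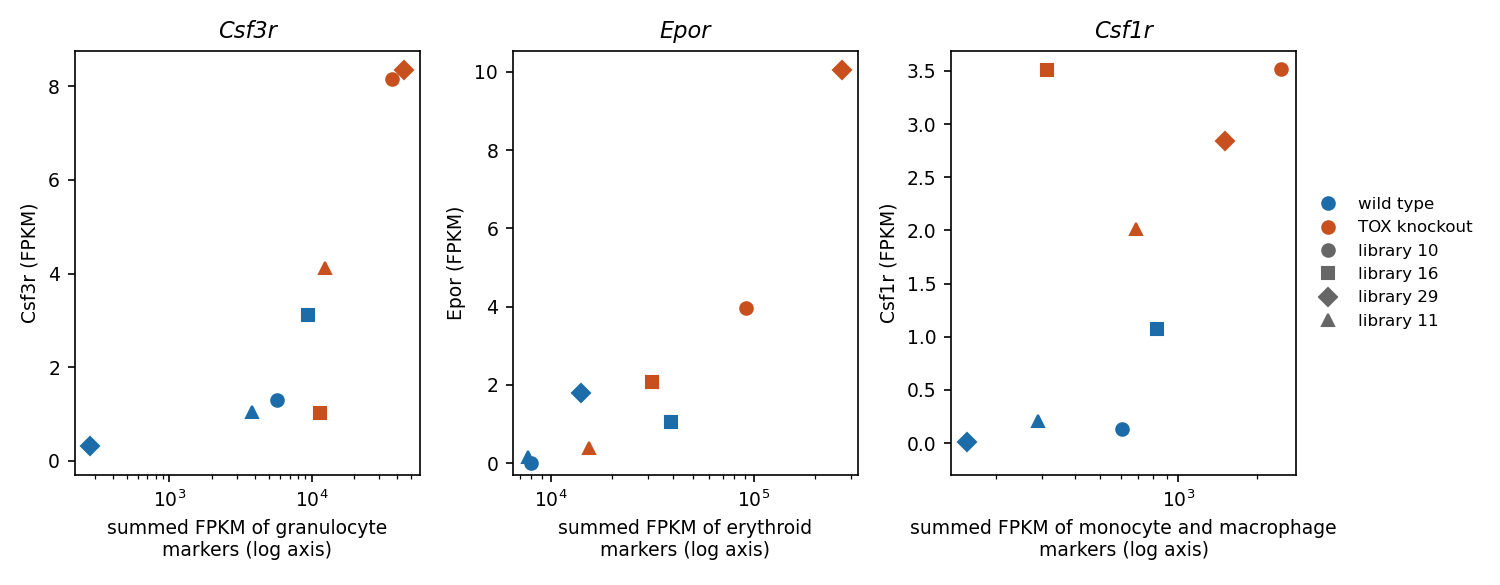
FPKM of Csf3r, Epor and Csf1r (vertical, linear) against the summed FPKM of granulocyte, erythroid and monocyte markers (horizontal, logarithmic) in each library. Each receptor is highest where its marker sum is highest, Csf3r and Epor in knockout library 29 and Csf1r in knockout library 10, and Csf1r in knockout library 16 is also 3.51 FPKM, at a marker sum of 312 FPKM. In knockout library 10 the marker Lyz2 alone makes 1827 of the 2461 FPKM of monocyte markers.

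The order of the receptors differed between the groups. By mean FPKM in wild type it ran Kit, Csf2ra, Il3ra, Flt3, Csf3r, Csf2rb, Epor, Csf2rb2 and Csf1r. Only Kit and Csf2ra had ranges that did not touch, and Csf2ra was above Il3ra in 4 of 4 libraries although their ranges overlapped. All further neighbours in that order overlapped. In the knockout it ran Kit, Flt3, Csf2ra, Csf2rb, Csf3r, Epor, Il3ra, Csf1r and Csf2rb2, and the ranges of all neighbours overlapped.

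As a share of the summed FPKM of the 9, Kit took 53.8% to 68.9% in wild type and 21.6% to 43.8% in the knockout. Flt3 took 2.41% to 5.40% and 12.4% to 18.5%, and Csf2ra 13.3% to 23.6% and 3.53% to 18.3%. The shares of Kit and Flt3 thus did not overlap between the groups, and those of Csf2ra did. Such shares sum to a fixed total, so a higher share of Flt3 lowers the others. The sum itself was 33.9 to 46.5 FPKM in wild type and 79.7, 22.1, 61.7 and 106.5 FPKM in knockout libraries 10, 16, 29 and 11. Of all FPKM it made 0.0114% to 0.0148% in wild type and 0.0162%, 0.0106%, 0.00976% and 0.0311% in those knockout libraries.

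Set against Kit within each library, which removes the scaling of the library, Flt3 stood at 0.0355 to 0.0842 of Kit in wild type and 0.283 to 0.649 in the knockout. Csf1r stood at 0.000357 to 0.0420 of Kit in wild type and 0.0443 to 0.362 in the knockout. Neither ratio overlapped between the groups, while those of the other 6 receptors to Kit did, and 1.37% of all tested entries were higher relative to Kit without overlap. For Csf1r the gap between the highest wild-type and the lowest knockout ratio was narrow. These ratios use the same values as the tests above and are no separate evidence.

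**Figure D4:**
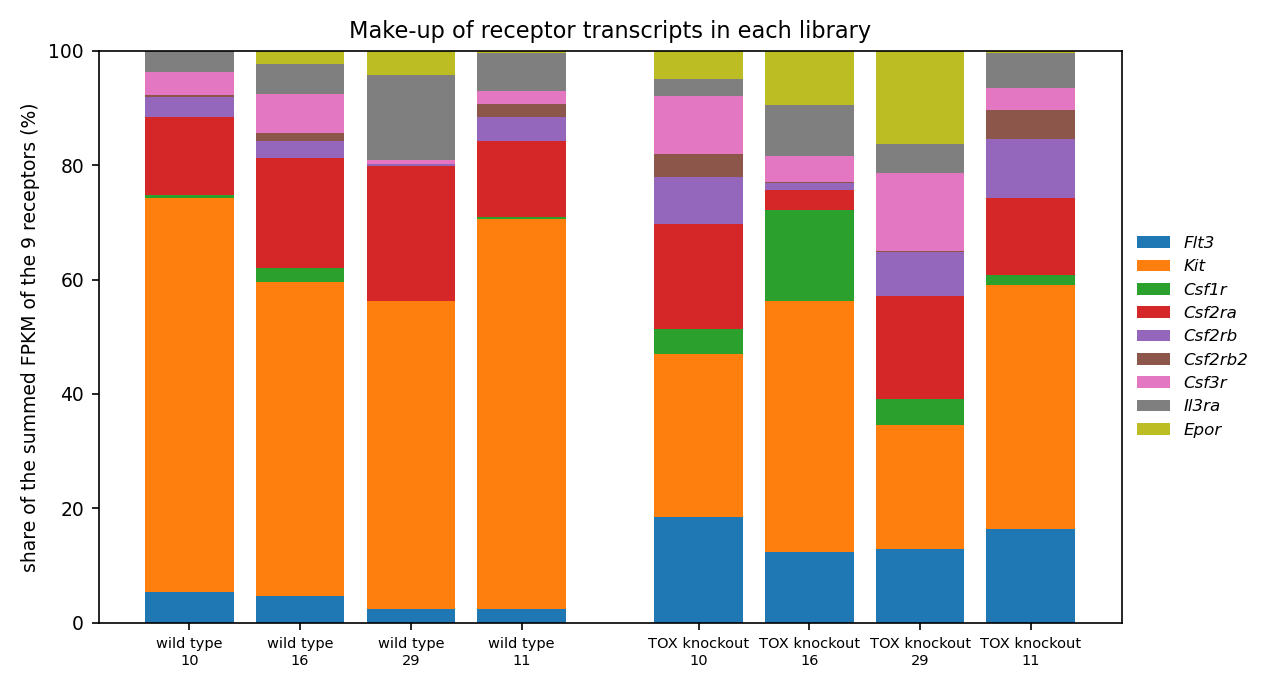
Share in percent of each receptor in the summed FPKM of the 9, stacked to 100%, in each wild-type and knockout library. Kit makes 53.8% to 68.9% of the wild-type bars and 21.6% to 43.8% of the knockout bars.

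Profiles over the 8 libraries were compared as the mean absolute difference of log2(FPKM + 1) after each gene's own mean was taken off, over 9838 named genes. Nearest to Flt3 was Irf8, a transcription factor of dendritic cells and monocytes, at 0.30, followed by Kctd14 at 0.31. Kit was nearest to Ddx5, an RNA helicase, at 0.11, and Nedd4, a ubiquitin ligase, at 0.14. Csf1r was nearest to Klf2, a Kruppel-like factor, at 0.18, and Atp1b1, a sodium pump subunit, at 0.25. For Csf2ra the nearest were Nrm and Tor1b, at 0.21 each, and for Il3ra Atxn2l at 0.16 and the ribosomal protein gene Rpl7a at 0.19. Csf2rb lay nearest to Ctnnd2 at 0.25 and Mycl1 at 0.27, and Csf2rb2 to Pmaip1, a BCL2 family death gene, at 0.19 and St8sia6 at 0.20. Nearest to Csf3r were Cd24a at 0.17 and Pglyrp1, a granule protein of neutrophils, at 0.18. Nearest to Epor were Rhag, of the red cell membrane, at 0.21 and Add2, a red cell skeleton protein, at 0.28. The 8 libraries share their 2 groups and their depth, so these distances are a description.

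Of the ligands, Csf2 fell. It encodes GM-CSF, the ligand of Csf2ra with Csf2rb. Csf2 stood at 10.4, 7.66, 15.5 and 15.1 FPKM in wild-type libraries 10, 16, 29 and 11 and at 0.510, 0, 0.106 and 3.10 FPKM in the knockout libraries. Every knockout value was below every wild-type value, and library 11 was the highest of the knockout. Csf2 had a log2 fold change of -2.98 with an SE of 0.50 (limma adjusted p = 0.00794), and of -2.75 without knockout library 16 (limma adjusted p = 0.00823). Of the 9 ligands, all listed, 3 passed the filter, Csf2, Flt3l and Il5, with a median log2 fold change of -1.52. Flt3l, the ligand of Flt3, is named after its values were seen. It was 22.3 ± 5.39 FPKM (SD, n = 4) in wild type and 7.92 ± 4.97 FPKM (SD, n = 4) in the knockout, without overlap, with a log2 fold change of -1.52 (SE 0.43, limma adjusted p = 0.102). It passed without knockout library 11, at -1.84 (limma adjusted p = 0.0260). Il5 passed without knockout library 16, at -1.85 (limma adjusted p = 0.0322). The other 6 ligands were low. Kitl did not exceed 2.36 FPKM, Csf1 1.78 FPKM and Il34 0.503 FPKM in any library, and Csf3, Il3 and Epo stayed under 0.04 FPKM in every library.

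Related receptors of both families had 4 of 11 members past the filter, and none was called, with a median log2 fold change of 0.95. At an unadjusted p under 0.05 by limma, 2 passed, each higher in the knockout, as were 3.11% of all tested entries. Il6st, the gp130 chain of the IL-6 family, was 0.828 ± 0.426 FPKM in wild type and 2.82 ± 1.06 FPKM in the knockout (SD, n = 4 each) without overlap, at a limma adjusted p of 0.186. Pdgfrb, a class III kinase for PDGF, was 0.903 ± 0.483 and 3.76 ± 2.50 FPKM (SD, n = 4 each), at a limma adjusted p of 0.228. Their wild-type means were under 1 FPKM, as for several of the receptors above. The same held for Il6ra of this list, named after its values were seen, at 0.910 FPKM. Il6st, Pdgfrb and Il6ra passed the filter through their knockout libraries, so neither the list median nor these p-values support anything by themselves.

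The signal transducers of these receptors had 24 of 25 members past the filter, with 0 called by limma. Their median log2 fold change was -0.31, against -0.52 for all genes. At an unadjusted p under 0.05 by limma, 4 of the 24 passed, 1 of them higher in the knockout. Among all tested entries 3.11% were higher and 17.5% lower at that threshold. Jak2, a Janus kinase of the complexes these cytokine receptor chains form, stood at 31.7, 22.9, 33.3 and 43.6 FPKM in wild-type libraries 10, 16, 29 and 11. In the knockout libraries Jak2 was at 13.2, 1.57, 5.72 and 18.3 FPKM. All were below wild type, library 16 the lowest, with a log2 fold change of -1.996 (SE 0.56, limma adjusted p = 0.0977). It passed without knockout library 11, at -2.40 (limma adjusted p = 0.0306).

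Negative regulators had 13 of 14 members past the filter, of which 2 fell and 0 rose, against 1.72% and 0.196% of all tested entries, with a median log2 fold change of -0.41. Socs1, a feedback inhibitor of Janus kinases, was 43.2 ± 13.8 FPKM in wild type and 5.91 ± 4.83 FPKM in the knockout (SD, n = 4 each), and its log2 fold change of -2.84 had an SE of 0.48 and a limma adjusted p of 0.00794. Dok2, an adaptor that restrains RAS signalling, was 76.5 ± 14.7 and 20.5 ± 9.05 FPKM (SD, n = 4 each), and its log2 fold change of -1.93 had an SE of 0.38 and a limma adjusted p of 0.0220. Socs1 missed the threshold under median-ratio scaling, at -2.26 (limma adjusted p = 0.0992). With no filter, which tests more entries, Socs1, Dok2, Csf2 and Lmo2 all missed the threshold, at limma adjusted p-values of 0.0814, 0.0843, 0.0843 and 0.0851. The first barcode run alone, with 2 libraries a group, called none of these 4 (limma adjusted p = 0.572 to 0.652), and the second called Socs1 and Lmo2 (0.0284 and 0.0194) but not Dok2 and Csf2 (0.180 and 0.102). Dok2 missed it when any single wild-type library or knockout library 29 was left out, at adjusted p-values up to 0.108. Of 12 STAT5 targets past the filter none was called by limma, with a median of 0.11. At an unadjusted p under 0.05 by limma 3 passed, 2 lower and 1 higher in the knockout, beside 17.5% and 3.11% of all tested entries. Pim2, a survival kinase, was 43.8 ± 8.55 and 17.1 ± 11.4 FPKM (limma adjusted p = 0.145) and Cdkn1a, a cell cycle inhibitor, 14.2 ± 4.18 and 5.38 ± 4.96 FPKM (limma adjusted p = 0.167), each SD with n = 4. The third, Socs2, a feedback inhibitor, is named after its values were seen, and was 1.77 ± 0.438 and 4.90 ± 1.37 FPKM (SD, n = 4 each) without overlap (limma adjusted p = 0.173). Cdkn1a passed without knockout library 11, at a log2 fold change of -2.05 (limma adjusted p = 0.0435).

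Progenitor transcription factors had 16 of 18 members past the filter, of which 1 rose and 0 fell, against 0.196% and 1.72% of all tested entries, with a median log2 fold change of 0.66. Lmo2, a bridging protein of stem cell and erythroid transcription complexes, stood at 10.4, 20.7, 10.3 and 4.41 FPKM in wild-type libraries 10, 16, 29 and 11 and at 95.8, 51.9, 164.6 and 59.6 FPKM in the knockout libraries. No library overlapped, and library 29 held the most. Lmo2 had a log2 fold change of 2.93 with an SE of 0.49 (limma adjusted p = 0.00762), and of 3.16 without knockout library 16 (limma adjusted p = 0.00322). Irf8, named above for its profile near Flt3, was 11.6 ± 5.09 and 46.9 ± 28.8 FPKM (SD, n = 4 each) with overlap at knockout library 16, at a limma adjusted p of 0.145. Without knockout library 16 it rose, at 2.28 (limma adjusted p = 0.00450). Sfpi1, the gene of the myeloid factor PU.1, is named after its values were seen. It was 5.43 ± 2.48 and 21.0 ± 15.97 FPKM (SD, n = 4 each) at a limma adjusted p of 0.284, and rose without knockout library 16, at 2.12 (limma adjusted p = 0.0121).

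**Figure D5:**
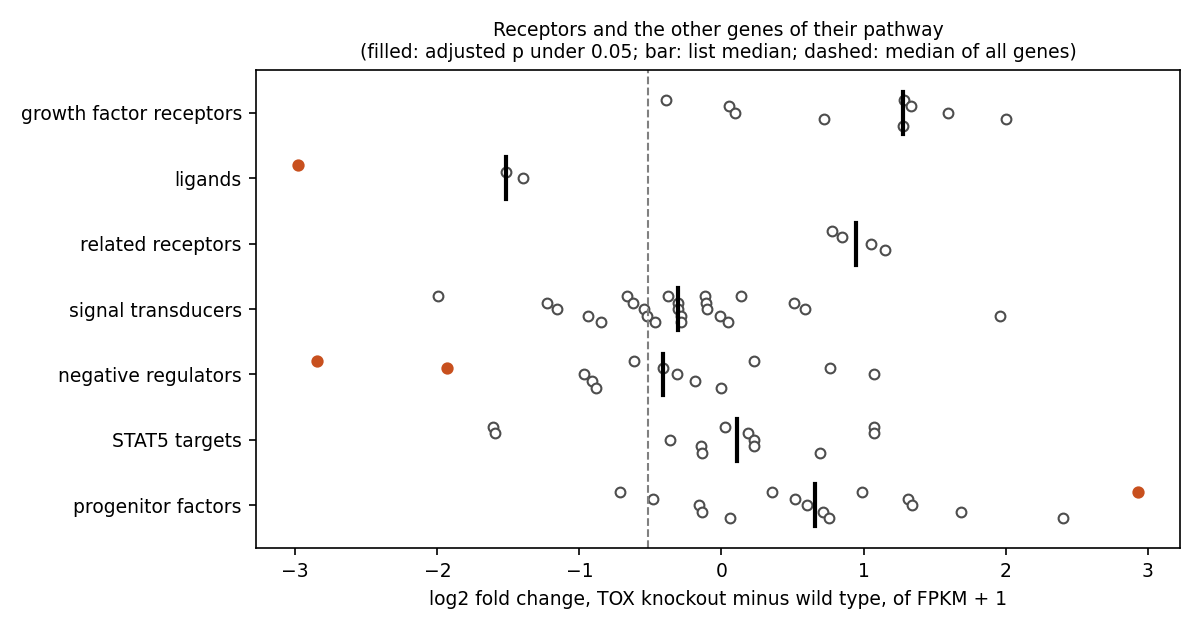
Log2 fold change of FPKM + 1, positive where the knockout was higher, of the 9 receptors and of the pathway genes past the filter, by list, with filled points for an adjusted p under 0.05, bars at list medians and a dashed line at the median of all genes, -0.52. Filled are Csf2 among the ligands, Socs1 and Dok2 among the negative regulators and Lmo2 among the progenitor factors.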

How the data were processed

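RNA was measured in 8 libraries of sorted mouse bone marrow cells. Per the labels' protocols, cDNA was made with a SMARTer low-input kit and sequenced on an Ion Proton. The authors deposited FPKM per gene, made with Cufflinks on mm10 per the submitters' processing notes; of the version, aligner and annotation nothing is given in the sources used here. Column names give genotype and a library number that matches no sample title, so each column was assigned to its group only, and 0 columns were left unused.

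Values were used as log2(FPKM + 1). Entries with a mean of at least 1 FPKM were fitted with limma 3.58.1 in R 4.3.3 (empirical Bayes with trend, Benjamini-Hochberg adjustment over all 10693), and called at an adjusted p under 0.05; the fit was tested on simulated data. Single genes also had an exact two-sided permutation test. No reads are given, so absolute depth is unknown and no counting interval can be had. Steps between low values put the depth, relative to the first wild-type library of each run, at 0.722 to 1.44 for libraries 10 and 16 and at 0.693 to 0.889 for libraries 29 and 11. The 1.44 was that of knockout library 16, the library with the fewest genes at 1 FPKM or more. Named genes were Tox, all 9 receptors, of each pathway list up to 3 called members in each direction or else the 2 with the smallest p, and for each receptor the 2 nearest profiles; 1 gene that the rule took is left out of the text, and genes outside the rule are marked or stand with their marker list, and pathway genes beyond it are given where leaving out a library changed their call. The receptors and all lists were chosen with earlier results of these data known. Alternatives covered the pseudocount, the filter, scaling, library weights, the trend, the threshold, the block, the barcode runs and each library left out.

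Sequences were read from RefSeq and GENCODE M21 tables, and PU.1 was matched as Sfpi1. The markers Adgre1, Hbb-bt and Ahsp matched no entry.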

Additional observations from a re-analysis of the deposited data

Results flagged for a closer look

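Of 56 sets of 4 values checked for a library far from the rest, 3 had such a value, and chance gives about 1 in 20. Csf2 in knockout library 11 was 3.10 FPKM, while the other knockout libraries held 0 to 0.510 FPKM. The ratio of Csf1r to Kit in wild-type library 16 was 0.0420, while the other wild-type libraries had 0.000357 to 0.00644. The ratio of Csf2rb to Csf2rb2 in knockout library 29 was 54.3, while the other knockout libraries had 2.03 to 9.68.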

How the results depend on the processing

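Tox and the 6 receptors Flt3, Csf1r, Csf2rb, Csf2rb2, Csf3r and Epor kept the direction of their log2 fold change under every alternative that could be fitted for them. Csf2rb2 could be fitted under 21 alternatives and Flt3 under 26. Csf1r, Csf2rb2 and Epor entered the fits through their knockout values, so for them a kept direction is a description and supports nothing by itself. The count of receptors that rose, 0 as reported, was 1 with a filter of at least 1 FPKM in 4 libraries, with median-ratio scaling, with scaling to the same sum, and with that scaling without haemoglobin, 2 with quantile normalization, with an adjusted p under 0.1 and without knockout libraries 16 and 29, 4 with library weights, and 0 to 2 with each library left out in turn. None fell under any. Kit turned to 0.19 under median-ratio scaling, to 0.035 under quantile normalization and, when knockout libraries 16 and 29 were both left out, to 0.32. Csf2ra turned to -0.10 and -0.013 with pseudocounts of 0.1 and 0.5, -0.23 with scaling to the same sum and -0.51 in the first barcode run, and ran from -0.24 to 0.80 with each library left out. Il3ra turned to -0.053 with scaling to the same sum and ran from -0.19 to 0.39 with each library left out. The number of entries called was 205 as reported, 106 with a pseudocount of 0.1, 74 with no filter, 116 with a mean of at least 5 FPKM, 496 with scaling to the same sum, 728 with library weights, 400 at an adjusted p under 0.1, 5 and 95 in the barcode runs alone, and 82 to 654 with each library left out, the highest without knockout library 11. The cause of these changes was not tested, but the runs alone hold 2 libraries a group.

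With the column number as a replicate block, 344 entries were called and 1 receptor, Flt3, rose (limma adjusted p = 0.0456). The deviations of same-numbered libraries correlated at 0.04, 0.01, -0.02 and 0.26 for numbers 10, 16, 29 and 11, and only those of number 11 correlated best with each other. Same-numbered libraries also carry neighbouring barcodes, 17 and 18, 19 and 20, 40 and 41, and 42 and 43. The labels tie no number to an animal or day and do not say whether the libraries were handled as pairs. Depth and the low wild-type values of Csf1r, Csf2rb2 and Epor, under 1 FPKM, limit what can be said of them.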
